A study of Homo sapiens with 2 samples.

Results

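NEAT1 is a long noncoding RNA transcribed from the plus strand of chromosome 11, at chr11:65190245-65213011 of hg19, a span of 22767 nt with no intron in its long isoform. Its cytosines were profiled here in both deposited tables of RNA bisulfite sequencing, a method in which an unmethylated cytosine is converted and read as thymine while a methylated cytosine, m5C, is read as cytosine. The members are the plus-strand positions in this span with a coverage, the sum of unconverted and converted counts, of at least 10. There were 3699 such sites of 1584002 kept sites in MCF10A against 2153 of 1271253 in MDA-MB-468, and 2149 of them were kept in both lines, of 812729 kept in both over all genes. Members were chosen by coverage, and the gene itself was chosen because its unconverted sites were already known from these same libraries, so the values along it are a description. Just inside the limit, at a coverage of 10, lay 57 sites with 0.702% of counts unconverted in MCF10A and 74 with 2.30% in the other line, and just outside, at 9, lay 61 with 1.28% and 93 with 0.836%.

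The study compared m5C between human cell lines. MCF10A, from normal mammary epithelium, and MDA-MB-468, from a breast cancer, were both bought from ATCC with no treatment named. Poly(A)-selected RNA of each was held in bisulfite at 60 degrees for 8 hours, and 1 library per line was sequenced. The methods give a different culture medium for each line, while the labels give the same one for both. With no replicates, the line, any difference in medium and the library cannot be told apart, and every test below compares 2 libraries.

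Both libraries were checked against markers, by level, the mean coverage over all reference cytosines of a gene per 1000000 counts on nuclear exons. The keratins KRT8 and KRT18, of luminal epithelium, had 0.124 and 0.139 in MCF10A, and 1.39 and 2.12 in the cancer line. The basal keratin KRT5 had 0.388 and 0.201 and KRT17 0.297 and 3.68, and KRT14 had no kept site in either. EGFR, amplified in MDA-MB-468, had 0.0857 and 1.08. The epithelial adhesion genes EPCAM and CDH1 had no kept site in the library labelled MCF10A, which goes against an epithelial label although KRT5, KRT8 and KRT18 were kept there, and levels of 0.275 and 0.0590 in MDA-MB-468. VIM, an intermediate filament of mesenchymal and of cultured basal cells, had 7.99 and 0.00223. The leukocyte gene PTPRC and the fibroblast gene COL1A2 had no counts in either, and the fibroblast gene COL1A1 had 0.00247 and 0.0678. Their part in the results on NEAT1 was not tested.

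NEAT1 is the scaffold of paraspeckles, nuclear bodies that hold RNA-binding proteins and retain some RNAs in the nucleus. It is made as a short isoform, which ends early and carries a poly(A) tail, and as a long isoform, which builds the paraspeckle and ends in a triple helix without a poly(A) tail. Both start at the same place, so counts in the first part of the gene come from both isoforms and those beyond it from the long one. The annotated short transcripts end within the first 3740 nt, at 65193984, close to the 3.7 kb usually given. Double-stranded RNA reacts poorly with bisulfite, so an unconverted cytosine in a stem can be m5C or an unmethylated base that was not reached, and these counts alone cannot tell them apart.

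The methylation ratio is the share of unconverted counts at a site. Among NEAT1 sites covered by at least 50 counts the highest ratios lay in 2 predicted hairpins. These sequences are shown because they held 32.2% of all unconverted NEAT1 counts in MCF10A against 45.6% in MDA-MB-468, within 1.86% and 3.21% of the counts. The third is another predicted hairpin with at least 8 base pairs and a loop of at most 10 nt, a limit set after the values were seen. Each runs 5′ to 3′ on the plus strand of hg19, in DNA letters, with predicted stem bases in capitals and loop bases in lower case.
Hairpin at nt 627 to 650, chr11:65190871-65190894: CGGCCTGGGacggggCCCAGGCCG
Hairpin at nt 12785 to 12815, chr11:65203029-65203059, without its outermost pair: CTCTGGGTGCagagctgagGCACCCAGAG
Hairpin at nt 15070 to 15090, chr11:65205314-65205334: ATACTGTCacgccGACAGTGT

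The first hairpin had 9 base pairs, 8 of them between G and C. It lies in the intron of the spliced short transcript NEAT1-201, which is exonic in the long isoform. All 8 stem cytosines kept were called in each line, where a call is a one-sided Fisher's exact test of a site's counts against the pooled counts of all kept sites with a Benjamini-Hochberg adjusted p under 0.05. Their pooled nonconversion rate was 47.4% for MCF10A and 41.5% for MDA-MB-468. The single loop cytosine, at nt 637, was unconverted in 2.34% of 728 counts in MCF10A against 1.25% of 1036 in MDA-MB-468. It was called in neither line, although its neighbours 5 to 7 nt away were among the least converted of the whole RNA.

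The ratio within this stem was lower at both ends of the helix. The outermost cytosine, at nt 627, had a ratio of 23.7% in MCF10A (95% Wilson interval 20.3% to 27.5%, coverage 527) against 19.0% in MDA-MB-468 (16.3% to 22.1%, coverage 695). The cytosine next to the loop, at nt 642, had 30.5% (27.3% to 33.9%, coverage 734) and 27.7% (25.1% to 30.4%, coverage 1081). The other 6 stem cytosines lay in inner pairs of the helix and had higher ratios in both lines. The highest site of NEAT1 was nt 644, with 59.7% for MCF10A (56.1% to 63.2%, coverage 729) and 51.1% for MDA-MB-468 (48.1% to 54.1%, coverage 1084). At nt 643 the ratio was 54.6% in MCF10A against 48.7% in MDA-MB-468. At nt 630 it was 53.4% and 46.2%, at nt 631 51.3% and 45.1%. The cytosines at nt 648 and 649 had 50.8% and 51.1% in MCF10A, and 45.1% and 43.97% in MDA-MB-468. Each of the 8 ratios was the higher one in MCF10A. These intervals cover counting error only, and since 1 read can span the whole hairpin its sites are not independent.

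The second hairpin is in the part that the long isoform alone covers. It had 11 base pairs, 8 of them between G and C, around a loop of 9 nt. Of its 8 stem cytosines, 7 were called in MCF10A against 6 in MDA-MB-468, and the pooled rate was 33.4% and 31.9%. Its loop cytosine at nt 12800 was unconverted in 1.96% of 357 counts for MCF10A and 0 of 59 for MDA-MB-468, which allows a share of up to 5.08%. From the open end inwards the ratio in MCF10A was 4.98% at nt 12785, 16.3% at nt 12786, 26.5% at nt 12788 and 43.3% at nt 12795, and in MDA-MB-468 it was 4.55%, 11.6%, 31.0% and 42.2% at the same positions. The 4 cytosines of the other arm, nt 12806 to 12810, had 40.7% to 42.8% in MCF10A against 36.9% to 42.1% in MDA-MB-468. Coverage was 291 to 383 in MCF10A against 42 to 65 in MDA-MB-468, so the intervals of the second line are far wider.

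**Figure D1:**
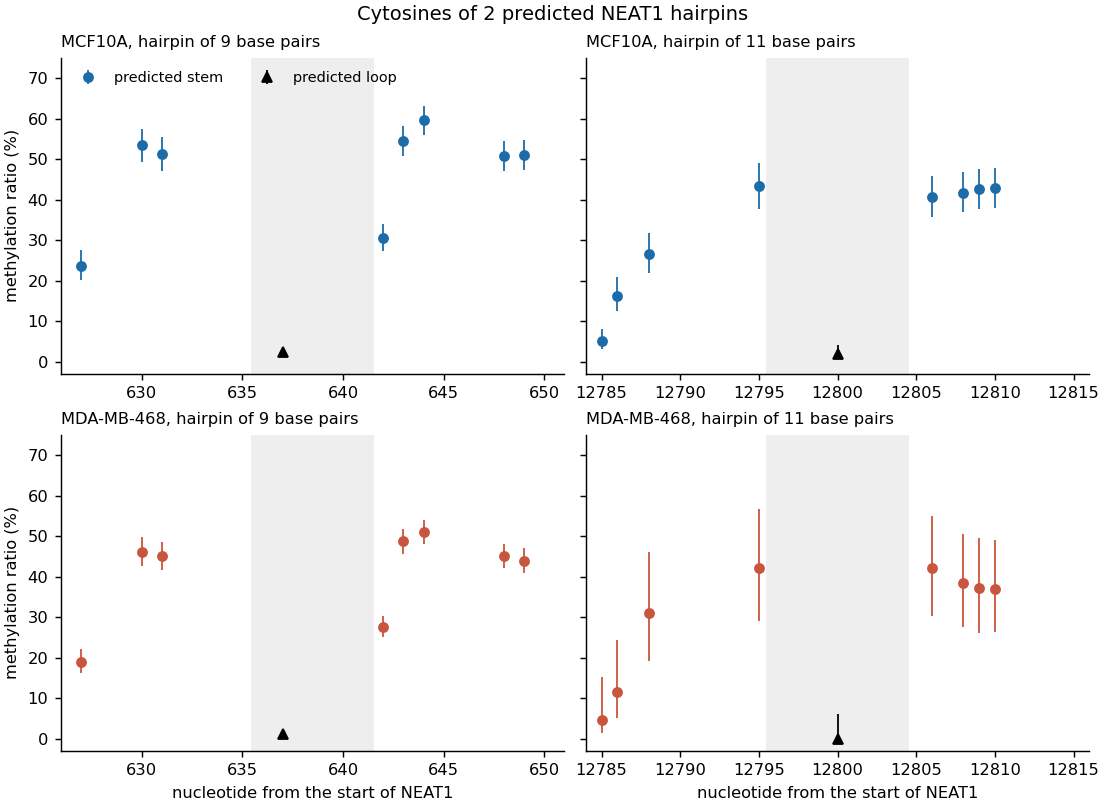
Methylation ratio (%) of each kept cytosine in 2 predicted hairpins of NEAT1 against its nucleotide position from the gene's start, with 95% Wilson intervals, for MCF10A (top) and MDA-MB-468 (bottom). Circles are predicted stem cytosines, triangles are loop cytosines and the grey band is the loop. Stem ratios reach 59.7%, fall towards the open end, and drop to 2.34% or less at the loop cytosines.

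The hairpin at nt 15070 to 15090 held no called site. It was poorer in G-C pairs, with 3 of 8. In MCF10A its 3 stem cytosines had 0 of 65 counts unconverted, which allows a share of up to 4.62%. It had no kept site in MDA-MB-468. Whether base composition sets the ratio was not tested.

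Outside the 2 hairpins the called sites of NEAT1 had ratios of up to 28.6% in MCF10A, and up to 45.5% in MDA-MB-468 at a coverage of 11. In all, 64 of 3699 sites were called in MCF10A, or 1.73% (95% Wilson interval 1.36% to 2.20%), where 0.96% of all kept sites were called. In MDA-MB-468 42 of 2153 were called, or 1.95% (1.45% to 2.63%), where the share of all kept sites was 0.84%. Without the hairpins at nt 627 and nt 12785 the shares were 1.33% in MCF10A, 49 of 3681 sites, and 1.31% in MDA-MB-468, 28 of 2135. MALAT1, the neighbouring nuclear long noncoding RNA, had 26 of 1049 sites called for MCF10A (2.48%) and 20 of 1020 for MDA-MB-468 (1.96%). The exons of all other long noncoding RNAs had 1.02% and 0.741%. The share in NEAT1 was above the pooled background in each library, and its interval overlapped that of MALAT1. NEAT1 was also covered more deeply, with a median of 77 and 37 counts per site against 18 over everything kept in each line. Other long noncoding RNA exons had medians of 16 and 15, and MALAT1 274 and 221.5. Lower ratios can be called at greater depth, so these shares are not compared at equal depth. The higher share is therefore not read as more unconverted sites in NEAT1.

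The ratios at called NEAT1 sites ranged from 4.08% to 59.7% with a median of 12.1% in MCF10A, and from 5.31% to 51.1% with a median of 26.3% in MDA-MB-468. A ratio of at least 20% was found at 18 and 26 of them, and of at least 50% at 6 and 1. Which ratios can be called depends on depth. The fewest unconverted counts called were 4 at a coverage of 10 in each line and 6 at a coverage of 50, a ratio of 12%. The median coverage of kept NEAT1 sites was 77 in MCF10A against 37 in MDA-MB-468, so lower ratios could be called in MCF10A.

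**Figure D2:**
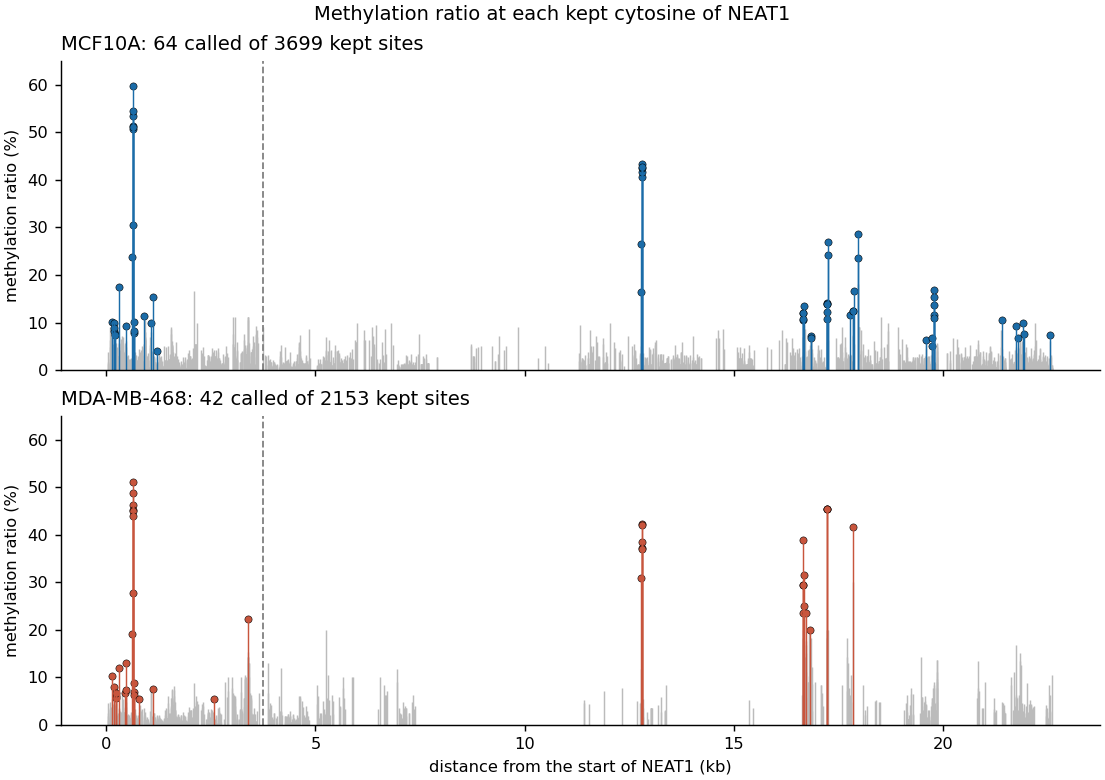
Methylation ratio (%) at each kept cytosine of NEAT1 against its distance from the gene's start in kb, for MCF10A (top) and MDA-MB-468 (bottom). Circles and coloured lines are called sites, grey lines are sites not called, and the dashed line is the end of the short part. The called sites stand in groups near 0.6, 12.8 and 16.7 to 18 kb, and 64 were called in MCF10A against 42 in MDA-MB-468.

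Called sites stood close together. Of the 64 in MCF10A, 48 (75%) lay within 10 nt of another called site, and of the 42 in MDA-MB-468, 31 (73.8%). The 2 hairpins held 15 and 14 of the calls. The same share over all called sites of each library was not computed, and the paper reported such clustering in other RNAs. Closeness is thus not read as particular to NEAT1. Joined at that distance, the calls made 29 stretches in MCF10A against 19 in MDA-MB-468, of which 8 and 6 held at least 3 called sites and together 38 and 27 of the calls. Single calls numbered 16 and 11. Some of the stretches with the most called sites are printed below as 30-nt windows of the plus strand of hg19, since their sequences show what these places share, with the called cytosines in capitals.
MCF10A and MDA-MB-468, called at nt 642 to 655: ggacggggCCCaggCCgggCCCagcctggt
MCF10A, called at nt 194 to 209: agggggaCCaCagtggggCaggCtgcatgg
MCF10A, called at nt 19777 to 19781: ttcaggacgtgaCCCCCagggcacatgaag
MDA-MB-468, called at nt 233 to 237: tatccgcagggtCcCcCaggcagaacagcc

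The stretch at nt 642 to 655 starts in the stem of the first hairpin and runs past its end. Beyond the hairpin, the 3 cytosines at nt 653 to 655 were called in both lines at 7.85% to 10.1% for MCF10A and 6.26% to 8.77% for MDA-MB-468, far under the ratios of the stem. At nt 194 to 209, 5 sites were called in MCF10A with a pooled rate of 8.39%, and 1 of these 5 was called in MDA-MB-468, where the rate was 4.48%. Their coverage was 178 to 194 in MCF10A against 213 to 239 in MDA-MB-468, so depth was similar there.

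Some called stretches beyond the short part lie in sequence that recurs in the reference genome, and they enter the counts and rates given here. Whether reads of other copies were placed there was not tested.

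The 5 cytosines in a row at nt 19777 to 19781 were called in MCF10A alone. Their ratios there were 10.9% to 16.8% at a coverage of 101 to 104, and the pooled rate was 13.7%. In MDA-MB-468 the rate was 3.33% at a coverage of 11 to 13, at which 4 unconverted counts are needed for a call. None of the 5 was paired in the predicted structure, although their pairing probabilities were 0.544 to 0.868.

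Over all of NEAT1 the nonconversion rate, unconverted counts over all counts, was 2.18% in MCF10A (95% Wilson interval 2.14% to 2.22%, 10550 of 484064 counts) against 2.55% in MDA-MB-468 (2.49% to 2.61%, 7164 of 281345). All kept sites together had 1.99% and 1.81%, MALAT1 1.69% and 1.41%, and other long noncoding RNA exons 2.53% and 2.26%. Without the hairpins at nt 627 and nt 12785, NEAT1 had 1.50% and 1.43%, values that must be lower since the hairpins were picked for their ratios.

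The short part stood above the rest in both lines. Its rate was 3.48% in MCF10A against 2.89% in MDA-MB-468, and that of the remaining 19027 nt was 1.57% and 1.39%. Without the hairpin at nt 627 the short part had 1.94% (1.87% to 2.01%) and 1.51% (1.46% to 1.56%), a setting chosen after seeing the data. Of its kept sites, 23 of 654 were called for MCF10A and 24 of 651 for MDA-MB-468, against 41 of 3045 and 18 of 1502 in the rest. Within the short part the first 1000 nt held 20 of the 23 calls and 21 of the 24. The 243-nt intron of NEAT1-201, at chr11:65190855-65191097, had a rate of 11.5% (11.1% to 11.9%) and 10.9% (10.5% to 11.2%), with 11 of 60 and 12 of 60 sites called. Without the hairpin at nt 627 the intron had 2.44% (2.23% to 2.66%) and 2.23% (2.06% to 2.42%). The upstream exon of that transcript had 2.33% and 1.87%, and the sequence from its second exon to the end of the short part 1.72% and 1.26%. Outside the first 1000 nt the short part gave 3 calls in each line. The intron was not depleted of counts, with a level of 6.26 and 11.5 against 2.90 and 5.69 downstream of it.

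By windows of 500 nt the highest rates in MCF10A were 7.15% at nt 501 to 1000 and 6.70% at nt 12501 to 13000, the windows of the 2 hairpins. In MDA-MB-468 the same windows had 6.52% and 5.58%, and the highest rate lay elsewhere. A window beyond the short part had 8.06% in that line (6.73% to 9.61%, 68 kept sites) against 2.82% in MCF10A. Its mean coverage was 17.3 counts per cytosine in MDA-MB-468 against 109 in MCF10A, and the difference was not tested. Of the windows with at least 10 kept sites, 36 of 44 lay under 2% in MCF10A, as did 25 of 33 in MDA-MB-468. Over the 33 windows with at least 10 sites in each line the rates had a Pearson correlation of 0.811 and a Spearman correlation of 0.848, given as a description since windows share a library.

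**Figure D3:**
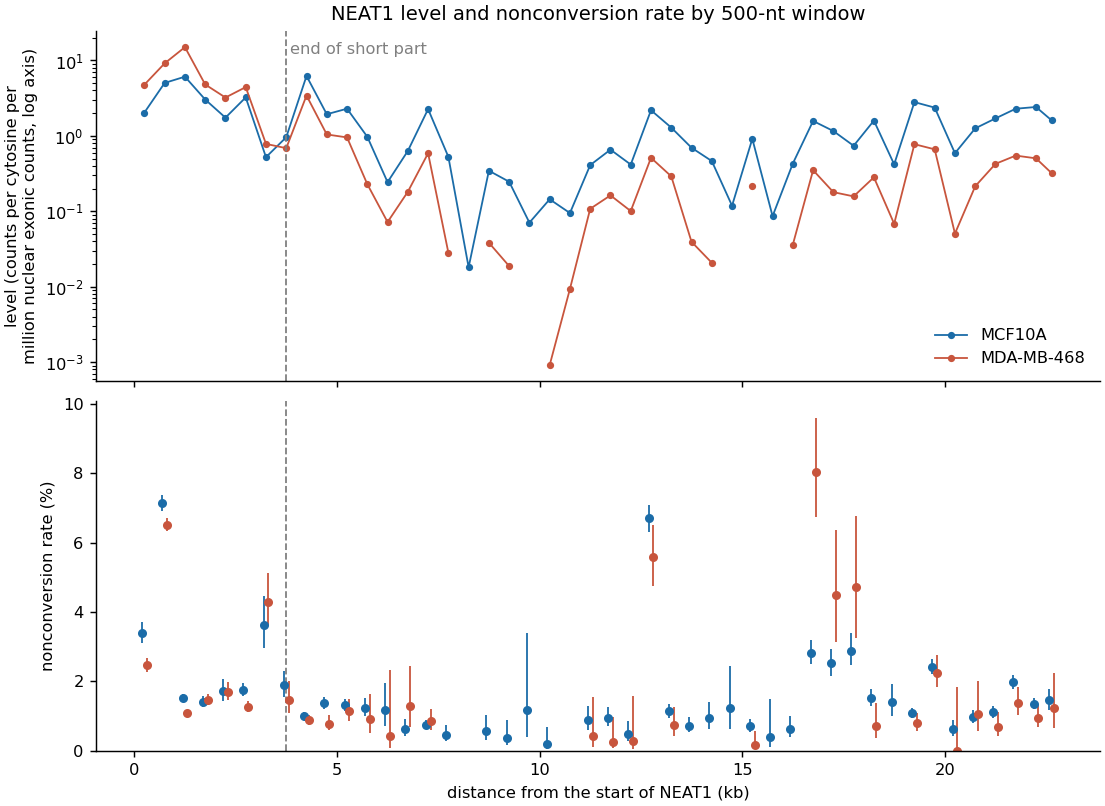
Level (top, log axis, counts per cytosine per 1000000 nuclear exonic counts) and nonconversion rate (bottom, %, with 95% Wilson intervals, windows with at least 10 kept sites) of NEAT1 in windows of 500 nt against distance from the gene's start in kb. Points are windows, colours are the cell lines, the dashed line is the end of the short part, and windows without counts are left out. MDA-MB-468 lies above MCF10A over most of the short part and below it beyond, while the rates of both lines have an early peak, of 7.15% and 6.52%, in the same window. The highest rate of MDA-MB-468, 8.06%, is in a window beyond the short part.

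Cytosines predicted to be paired were less converted than unpaired ones, and the size of that difference came mostly from the 2 hairpins. The RNA was folded with ViennaRNA at 70 degrees with pairs at most 150 nt apart. In MCF10A the 404 paired sites had a rate of 6.37% (6.19% to 6.55%) with 34 called, and the 3295 unpaired sites 1.46% (1.42% to 1.50%) with 30 called. In MDA-MB-468 the 299 paired sites had 10.4% (10.05% to 10.7%) with 27 called, and the 1854 unpaired sites 1.39% (1.35% to 1.44%) with 15 called. Paired sites thus made up 53.1% of the calls and 10.9% of the sites in MCF10A, and 64.3% and 13.9% in MDA-MB-468. Without the 2 hairpins the rate of paired sites was 1.81% (1.71% to 1.92%) in MCF10A against 1.75% (1.61% to 1.91%) in MDA-MB-468, against 1.46% and 1.40% of unpaired sites. The share called then was 4.90% of paired and 0.911% of unpaired sites in MCF10A, and 4.59% and 0.810% in MDA-MB-468. The wide gap in called share thus stood without the hairpins, while the gap in rate narrowed. With the hairpins in, the median coverage in MCF10A was 131.5 for paired and 74 for unpaired sites, and in MDA-MB-468 37 for each. The called shares of MCF10A are therefore not compared at equal depth. Some of the remaining paired calls lie in the recurring sequence described above, and its part was not tested.

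By helix length, the classes that held the 2 hairpins had the highest rates. Sites in helices of 4 to 5 base pairs had 2.04% in MCF10A against 1.94% in MDA-MB-468, and those in helices of 6 to 7 had 1.78% and 1.25%. In helices of 8 to 9 pairs the rate was 24.6% and 27.9%, and in longer ones 23.6% and 16.4%. Left without the 2 hairpins, helices of at least 8 pairs had 2.47% (2.13% to 2.88%, 49 sites) and 3.58% (3.09% to 4.15%, 33 sites). By pairing probability the rate stayed between 1.32% and 2.27% in MCF10A up to a probability of 0.99 and was 14.9% above it, and in MDA-MB-468 it stayed between 1.38% and 2.19% and was 26.0% above it. Without the 2 hairpins the last class had 2.16% and 2.84%. Of 80 predicted helices with at least 4 pairs, 14 held a called site in either line.

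**Figure D4:**
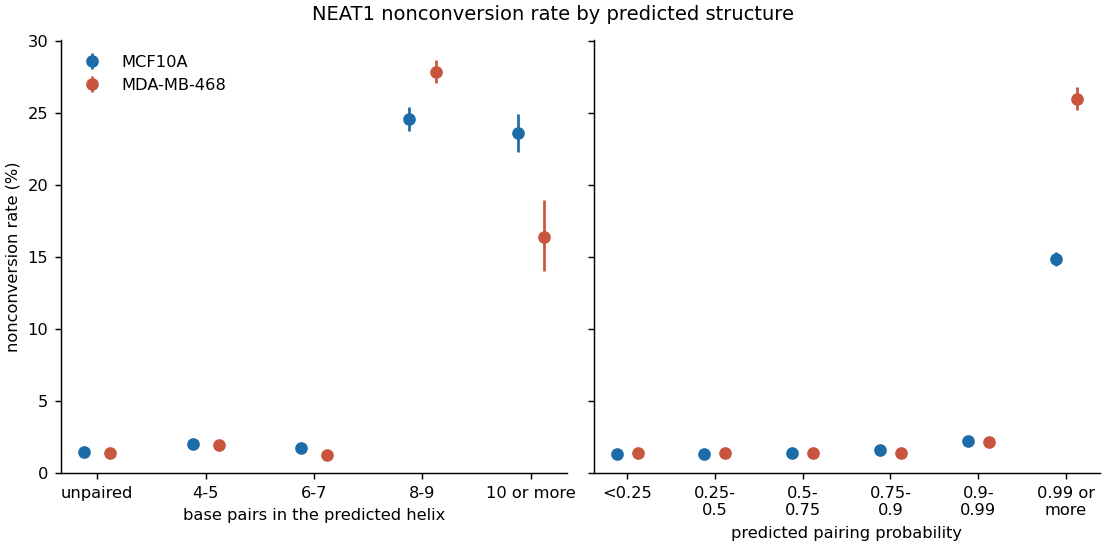
Nonconversion rate (%) of kept NEAT1 cytosines with 95% Wilson intervals, by the length of the predicted helix (left, base pairs) and by predicted pairing probability (right), in each cell line. Classes of at least 8 base pairs stand at 16.4% to 27.9% and shorter ones near 1% to 2%, and the highest probability class stands at 14.9% and 26.0%. Without the 2 hairpins the highest probability class had 2.16% and 2.84%.

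The rate was also taken by the sequence around the cytosine. Sites whose 100 nt of surroundings had at least 65% G and C had 9.34% for MCF10A and 10.8% for MDA-MB-468, while the 4 poorer classes had 1.26% to 2.08% and 1.14% to 2.36%. The hairpin at nt 627 lies in such a region. For MCF10A, its 8 stem cytosines supplied 2477 of the 3212 unconverted counts of this richest class. For MDA-MB-468 they supplied 3116 out of 3753. The rate of the class without this hairpin was not computed, so no trend with G and C is read. The part of each property was not tested. Cytosines beside another cytosine had 2.61% and 3.35%, and those without one 1.76% and 1.65%. The first class had 6213 unconverted counts in MCF10A and 4963 in MDA-MB-468. It holds most stem cytosines of the hairpin at nt 627, a stem with 2477 and 3116 unconverted counts. Rates without the hairpins were not computed for these 2 classes, so no effect of the neighbour is read from them. The motif CNGGG, read from the cytosine on the transcript strand, is like the G-rich context described for sites of the m5C methyltransferase NSUN2. It was found at 97 NEAT1 sites in MCF10A with a rate of 6.01% and 9 called (9.28%), and at 84 in MDA-MB-468 with 7.35% and 7 called (8.33%). Without the 2 hairpins the rate at this motif was 2.55% and 2.31%, with 6 of 93 and 4 of 80 sites called. Over all kept nuclear sites 3.18% and 3.50% had this motif, with a rate of 2.98% and 2.68%, and 2.20% and 1.84% of them were called. CTCCA, the motif described for the methyltransferase NSUN6, had 1 called of 23 at its first cytosine in MCF10A against 0 of 19 in MDA-MB-468, and 0 of 23 and 0 of 19 at the cytosine before its A. Over all kept nuclear sites 0.622% and 0.610% stood at the first cytosine of CTCCA, of which 0.681% and 0.491% were called. A match to either motif does not show which enzyme acted.

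No NEAT1 site differed between the libraries by the test over all shared sites. Of the 2149 sites kept in both, 0 passed a two-sided Fisher's exact test with Benjamini-Hochberg adjusted p under 0.05, while 0.0691% of all shared sites were lower in MDA-MB-468 and 0.0202% higher. An unadjusted p under 0.05 was reached by 77 NEAT1 sites (3.58%), 49 lower and 28 higher in MDA-MB-468, and by 1.14% of all 812729 shared sites. The shared NEAT1 sites had a median coverage of 149 in MCF10A and 37 in MDA-MB-468, where all kept sites had 18 in each. A small p is reached more easily at greater depth, so the 2 shares are not at equal depth. The smallest unadjusted p was 0.000369, at nt 644, with an adjusted p of 0.297 by Fisher's exact test across all shared sites. There the ratio was 8.56 percentage points lower in MDA-MB-468, with a 95% Newcombe interval from 3.90 to 13.2 points. A p that misses the threshold does not show equal ratios. Over the 31 sites called in both lines, the half-width of that interval ran from 2.49 to 26.8 points.

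Most NEAT1 sites called in MDA-MB-468 were also called in MCF10A. Of 42 such sites, all were kept in MCF10A and 31 (73.8%) were called there. Of the 64 called in MCF10A, 59 were kept in MDA-MB-468 and 31 (48.4% of the 64) were called. Among the 31 sites called in both, 15 lay in the first 1000 nt and 13 of these had the lower ratio in MDA-MB-468, with differences from -8.56 to 3.60 percentage points. These 15 include the 8 stem cytosines of the hairpin at nt 627 and those at nt 653 to 655 beside it. MCF10A had the lower median coverage in the first 1000 nt, 194 against 297.5, so no direction is read there. Beyond the short part lay 15, where the lower coverage of MDA-MB-468 allows only higher ratios to be called, so no direction is read from them. These are counts over neighbouring sites of 2 libraries and were not tested as a group.

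At the 850 sites covered by at least 50 counts in both libraries, the Pearson correlation of the ratios was 0.946 and the Spearman correlation 0.415. Of these sites 20 were called in both lines, 9 in MCF10A alone, 7 in MDA-MB-468 alone and 814 in neither. The larger coefficient follows the few sites with high ratios, and the ranks of the many sites near the background agreed less. Sites share reads with their neighbours, so both values are descriptions.

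**Figure D5:**
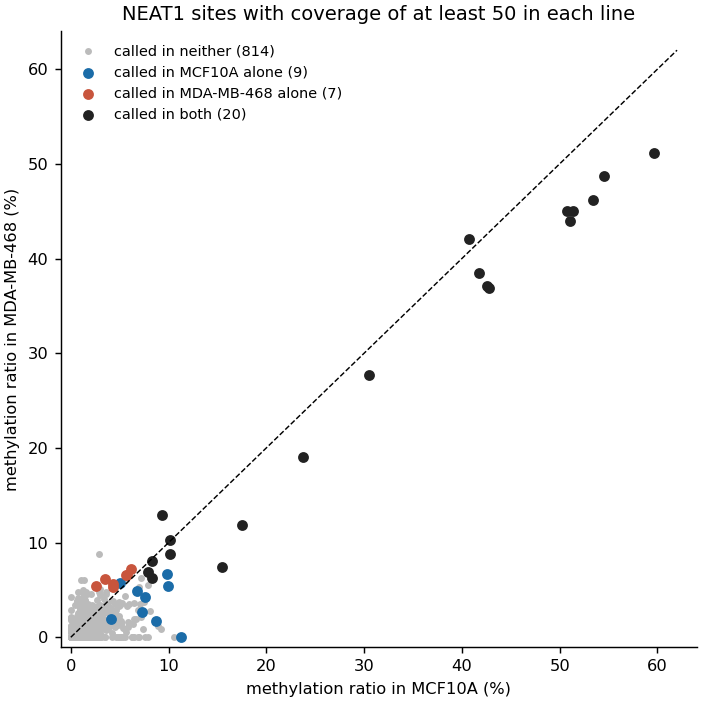
Methylation ratio (%) in MDA-MB-468 against MCF10A at the 850 NEAT1 sites covered by at least 50 counts in both libraries. Each point is a cytosine, coloured by the line in which it was called, and the dashed line is equality. The stem sites of the hairpin at nt 627 lie just below the line, up to 59.7% and 51.1%, and stem sites of the hairpin at nt 12785 covered by under 50 counts in MDA-MB-468 are not plotted, and 814 sites lie near the origin.

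The 2 parts of NEAT1 differed in level between the libraries. The short part had 3.27 in MCF10A (95% Poisson interval 3.26 to 3.29) against 6.40 in MDA-MB-468 (6.37 to 6.42). The rest had 1.21 (1.21 to 1.22) and 0.346 (0.343 to 0.348). The short part was thus 2.70 times the rest for MCF10A and 18.5 times for MDA-MB-468. These intervals cover counting error only, and there is no replicate to set them against. The RNA was poly(A)-selected, and the long isoform has no poly(A) tail. Its recovery was not measured, so 2.70 and 18.5 are not isoform proportions. In bulk RNA, fewer cells with NEAT1 and less NEAT1 per cell cannot be told apart. Scaled to all counts of a table, which moved every ratio of MDA-MB-468 to MCF10A by -0.74 on the log2 scale, the short part had 2.96 and 3.48, a ratio of 1.17, and the rest 1.10 and 0.188. The order of the lines was kept in both parts.

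In MDA-MB-468 the coverage was lowest in the middle of the long isoform. Of 4652 reference cytosines, 79.5% were kept in MCF10A against 46.3% in MDA-MB-468. In the short part 95.3% and 94.9% were kept, and in the rest 76.8% and 37.9%. The 6 windows from nt 8001 to 11000 had 5 kept sites in MDA-MB-468, all in 1 window, and 178 sites in MCF10A, where coverage was low as well. Towards the 3′ end, from nt 19001 to 20000, coverage was higher again in both windows, with 38.4 and 32.8 counts per cytosine in MDA-MB-468 against 193 and 163 in MCF10A. The last 156 nt held no kept site in either line.

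NEAT1 was among the higher genes by level in each library. Of genes with at least 100 kept sites it ranked 74 of 4514 in MCF10A against 121 of 3664 in MDA-MB-468, and among 55 long noncoding RNAs in each it ranked 2 and 6. Its whole level was 1.52 for MCF10A and 1.24 for MDA-MB-468, where MALAT1 had 5.73 and 11.2 and the median gene 0.104 and 0.143. By level and nonconversion rate in both lines, each on the log2 scale and divided by its SD over 2726 genes, the nearest genes were RPLP2, a ribosomal protein gene, CCT3, a subunit of the TRiC chaperonin, and OAZ1, an inhibitor of ornithine decarboxylase. Their distances were 0.605, 0.640 and 0.652 SD. RPLP2 had a level of 2.23 and 1.48 with rates of 2.25% and 3.03%, CCT3 0.977 and 1.01 with 2.48% and 2.85%, and OAZ1 1.77 and 1.85 with 2.66% and 2.42%.

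The mRNAs of paraspeckle proteins carried called sites as well. Of 29 such genes 27 had kept sites in MCF10A against 28 in MDA-MB-468, and 12 and 10 had a called site. In all 98 of 7862 sites were called (1.25%) and 90 of 6438 (1.40%), where 0.96% and 0.84% of all kept sites were called, and 0 of their 5646 shared sites differed between the libraries with an adjusted p under 0.05 by Fisher's exact test. Among the core proteins of the family that binds NEAT1, SFPQ had 41 of 520 sites called in MCF10A against 37 of 409 in MDA-MB-468, while NONO and PSPC1 had none of 260 and 140 sites, and of 201 and 139. Among the genes needed for assembly, DAZAP1 had 27 and 18 called sites, SMARCA4, a chromatin remodeler, 9 and 10, RBM14 1 in MCF10A, and HNRNPH3 1 in MDA-MB-468. Among the others, EWSR1, an RNA-binding protein, had 8 and 7, HNRNPF 3 and 2, HNRNPH1 2 and 1, and TAF15 2 and 2. AKAP8L had 10 and HNRNPUL1 2 in MDA-MB-468 alone, CIRBP 2 and CPSF7 and UBAP2L 1 each in MCF10A alone. SFPQ and DAZAP1 together held 68 of the 98 calls for MCF10A and 55 of the 90 for MDA-MB-468. The other genes had 30 of 7030 (0.427%) and 35 of 5651 sites called (0.619%). These shares must be lower, since SFPQ and DAZAP1 were set apart for their many calls. No such genes were left out of the share of all kept sites, so the 2 are not compared.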

How the data were processed

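RNA bisulfite sequencing of 1 library each of MCF10A and MDA-MB-468 was analysed. Per the methods and labels, the authors trimmed reads with Trim Galore, mapped the reads to hg19 and called methylation with MeRanTK. The labels also name Bismark. Versions are not given in the sources used here. The authors deposited counts of unconverted and converted reads per cytosine, not normalized, with a Start position for each. The tables held 76098976 and 90960018 counts, started at a coverage of 5, and had neither p-values nor the structure filter of the methods. All nuclear positions fell on a cytosine of GRCh37. Sites covered by at least 10 counts were kept if they lay on same-strand exons (GENCODE release 44) or on the mitochondrial chromosome. Sites were called by one-sided Fisher's exact tests against the pooled kept counts and compared between lines by two-sided ones, with Benjamini-Hochberg adjustment at 0.05 over all sites. Pairing came from ViennaRNA 2.7.2 (70 degrees, span 150 nt, MEA gamma 0.1), on the whole short part and on windows of 2000 nt in steps of 1000 nt beyond. Intervals are Wilson, Newcombe and exact Poisson at 95% and cover counting error only. Scripts used Python 3.11.15, scipy 1.17.1 and pandas 2.3.3 and were tested on simulated data. Named sites were, per line, the 5 called sites with the highest coverage at a ratio of at least 0.2 and the 5 with the highest ratio at a coverage of at least 50, with the stretches of at least 3 calls; named genes were MALAT1, the paraspeckle genes with a call and the 3 nearest genes. Some stretches, a hairpin and a gene under these rules are not reported here. Members, lists and rules were chosen with earlier results of these data known. Alternatives covered coverage, background, test, ratio, pairing and scaling.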

Additional observations from a re-analysis of the deposited data

Results flagged for a closer look

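The tables also hold cytosines of the minus strand over the NEAT1 span, which lie on no annotated exon and enter none of the comparisons. At a coverage of at least 10 there were 49 such sites in MCF10A, with 2849 of 2875 counts unconverted, or 99.1% (95% Wilson interval 98.7% to 99.4%), and a highest coverage of 94. In MDA-MB-468 there were 38, with 763 of 766 counts unconverted, or 99.6% (98.9% to 99.9%), and a highest coverage of 22. They lay between nt 2340 and nt 21578. The origin of these unconverted counts, in data that the comparisons do not use, was not tested.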

How the results depend on the processing

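No paired analysis was possible because each line has 1 library and the labels give no replicate numbers. In all 84 rechecked calls of the 7 named sites over both lines the site stayed called. For 14 of these, under the limit of a ratio of at least 0.2, the adjusted p was kept and the sites already had such ratios. Those 14 could not fail. The 7 sites are all predicted paired, so none remains where paired cytosines are left out. Called sites numbered 54 to 69 in MCF10A and 33 to 43 in MDA-MB-468 when the coverage minimum, the background or the test was changed; at a ratio of at least 0.2 they numbered 18 and 26, and with predicted paired cytosines left out 30 and 15. Differential sites stayed at 0 in 3 of 4 alternatives. A minimum difference of 0.1 and the leaving out of predicted paired cytosines only narrowed the main set of 0, so neither could change it. The test was rerun at a coverage minimum of 20 in each line and gave 0. Adjusted over the 12052 sites called in at least 1 line, 7 NEAT1 sites passed by Fisher's exact test, 6 lower in MDA-MB-468 and 1, nt 16725 at a coverage of 17, higher; fewer tests enter that adjustment, and the sites were chosen by their ratios. The nonconversion rate in MCF10A and MDA-MB-468 was 1.37% and 1.27% without called sites, 1.46% and 1.39% without predicted paired cytosines, and 1.63% and 2.02% as the unweighted mean of site ratios. It was 2.34% in MCF10A over sites kept in both lines. Leaving out the stems of all 4 hairpins with at least 8 base pairs, an alternative chosen after seeing the data, gave 1.51% and 1.43%. At a pairing probability over 0.5, 81.3% and 88.1% of calls, and 53.6% and 62.7% of sites, counted as paired. By median the level of the short part was 2.28 and 4.08, of the rest 0.639 and 0.101, and their ratio 3.57 and 40.3; scaled to all counts the short part had 2.96 and 3.48 and the rest 1.10 and 0.188. With the boundary at 3.7 kb the short part had 3.32 and 6.49. With absent cytosines set at 4 counts, also chosen after seeing the data, the rest had 1.22 and 0.386 and the ratio in MDA-MB-468 was 16.6. The short part exceeded the rest in each. Depth limits low ratios in MDA-MB-468 beyond the short part, where the median coverage was 27 against 69.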
